A study of Mus musculus with 194 samples.

Results

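The genes described here are the NMDA receptor subunit genes Grin1, Grin2a, Grin2b, Grin2c, Grin2d and Grin3a, 6 of 21627 protein-coding genes on mouse chromosomes 1 to 19 and X. They were chosen by name, and the readout was the number of transposon insertions inside each gene body and 10 kb on either side, called the locus below. Values are given as insertions per 1000000 insertions of the same animal's table (IPM). The study used calling cards, in which a transposase carried by a virus leaves transposons at TTAA sites of the genome, so that the insertions record where the transposase, or a DNA-binding protein joined to it, had been. The data were 47 tables of insertions made from 194 GEO samples: 46 mice in 11 groups, and N2a, a mouse neuroblastoma cell line whose experiments were pooled in 1 table.

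All mice were injected with adeno-associated virus (AAV) on postnatal day 0 to 1. In 43 mice the insertions were read from RNA, through transcripts that start inside the transposon and run into the flanking genome (self-reporting transcripts, SRT), mostly from cortex cut into 10 pieces. Of these, 2 animals (C57bl6J) had no Cre line named, 6 carried Syn1Cre, which is driven by the promoter of the neuronal gene Syn1, and 6 were Cre-negative animals of that line (Syn1CreNeg). Another 6 carried GFAPCre, driven by the promoter of the astrocyte gene Gfap, and 6 were their Cre-negative counterparts (GFAPCreNeg). A construct labelled Frontflip was used in 3 GFAPCre and 3 GFAPCreNeg animals. Syn1Cre animals with the transcription factor label SP1 were taken at day 10 (P10, 3 animals) or day 28 (P28, 4 animals). The other groups had no age label, and the SP1 construct was not described further. In the 4 Rbp4Cre_TRAP animals, whole forebrain was used with 2 libraries an animal; TRAP recovers RNA bound to ribosomes in the cells a Cre line marks. In the 3 BrokenHeart animals insertions were read from DNA instead of RNA. Nothing in the labels describes how many cells carried insertions, and more cells of a type cannot be told apart from more insertions per cell in any of these values.

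NMDA receptors are glutamate-gated cation channels that let calcium into neurons and are needed for many forms of synaptic plasticity. Each channel holds the obligatory subunit encoded by Grin1 together with GluN2 subunits, encoded by Grin2a to Grin2d, or GluN3 subunits, such as that encoded by Grin3a. In the rodent cortex Grin2b is prominent early in life and Grin2a rises during postnatal development, while Grin2c is best known from cerebellar granule cells, Grin2d from early life and interneurons, and Grin3a from the early postnatal brain.

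The genes differ greatly in size, so their levels are compared with each other only per kb. In GRCm38 (mm10), Grin2b (NCBI gene 14812) lies at chr6:135713221-136173615 and spans 460 kb, and Grin2a (14811) lies at chr16:9567901-9996083 and spans 428 kb. Neither has another protein-coding gene within its locus. Grin3a (242443) at chr4:49661611-49846023 spans 184 kb and shares its locus with Rnf20 and Ppp3r2. The 3 short genes are Grin2d (14814) at chr7:45831883-45871194, 39.3 kb, Grin1 (14810) at chr2:25291177-25319187, 28.01 kb, and Grin2c (14813) at chr11:115249169-115267297, 18.1 kb. Their loci hold parts of Kcnj14, Grwd1 and Kdelr1, of Anapc2, Tmem210 and Lrrc26, and of Tmem104 and Fdxr, respectively. Of the Grin1 insertions in Syn1Cre animals, 44 of 167 (26.3%) lay in the gene body and the rest in the flanks; at Grin2b this share was 94.99%.

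The 250 bases before the annotated start are shown for the 3 members that the RefSeq promoter table holds (GRCm38.p6, minus strand, written 5′ to 3′ of the gene), because SP1 is known to bind GC boxes and the transposon goes into TTAA. Capitals mark GGGCGG, searched on both strands, and TTAA.
Grin1, chr2:25319188-25319437: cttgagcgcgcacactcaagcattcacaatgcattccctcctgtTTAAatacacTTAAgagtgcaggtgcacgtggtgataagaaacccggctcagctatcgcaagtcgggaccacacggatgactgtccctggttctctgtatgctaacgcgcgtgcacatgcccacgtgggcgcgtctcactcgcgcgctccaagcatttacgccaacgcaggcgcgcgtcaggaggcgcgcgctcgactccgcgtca
Grin2c, chr11:115267244-115267493: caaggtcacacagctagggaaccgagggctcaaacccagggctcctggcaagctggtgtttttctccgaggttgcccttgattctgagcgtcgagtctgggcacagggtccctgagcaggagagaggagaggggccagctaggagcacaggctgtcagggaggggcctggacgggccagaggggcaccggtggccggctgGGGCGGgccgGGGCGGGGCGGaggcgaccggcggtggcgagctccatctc
Grin2d, chr7:45866682-45866931: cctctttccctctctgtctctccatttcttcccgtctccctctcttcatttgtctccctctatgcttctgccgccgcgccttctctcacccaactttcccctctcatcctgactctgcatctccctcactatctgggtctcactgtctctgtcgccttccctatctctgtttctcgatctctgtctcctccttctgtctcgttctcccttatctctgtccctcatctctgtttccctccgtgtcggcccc
Grin2c held 3 GGGCGG matches at 68.8% GC, of which the last overlapped its neighbour by a base, and no TTAA. Grin1 held 0 such matches at 58.8% GC and 2 TTAA, and Grin2d held 0 of either at 54.4% GC. For comparison, 43.2% of 17273 such windows held GGGCGG and 46.2% held TTAA, and their median GC content was 55.6%. Within 2 kb of the annotated start, Grin1 had 26 insertions over the 6 Syn1Cre animals, 0 over the 3 P10 animals and 5 over the 4 P28 animals. For Grin2c these numbers were 10, 0 and 3, and for Grin2d 1, 1 and 4. These counts are not scaled for depth, which was much lower in the SP1 groups. As mean IPM, Grin1 had 4.53 in Syn1Cre and 7.62 at P28, Grin2c 1.98 and 4.56, and Grin2d 0.122 and 4.68. The lower P28 counts of Grin1 and Grin2c therefore do not show a lower level there. None of the 3 start windows had enough insertions to enter a test.

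Depth differed widely between tables and set which members could be tested. The tables held 1545951 to 2186743 insertions in C57bl6J, 443158 to 1364948 in Syn1Cre, 97519 to 556145 in Syn1CreNeg, 600443 to 1505413 in GFAPCre and 208057 to 597230 in GFAPCreNeg. They held 160631 to 205559 in Frontflip_GFAPCre, 2341 to 9601 in Frontflip_GFAPCreNeg, 24408 to 57014 in Rbp4Cre_TRAP, 42511 to 98197 in BrokenHeart, 86842 to 95331 at P10, 108965 to 577609 at P28 and 806653 in N2a. Astrocyte marker genes (12 loci, summed) set 1 Syn1Cre library apart: animal 5 had 2123 IPM there, against 695 to 914 in the other 5. At P28 animal 4 had 1117 and the other 3 animals 1936 to 2412, and the P10 animals had 955 to 1248. Neuron markers summed to 4683 to 5337 in Syn1Cre, 3092 to 4297 in Syn1CreNeg, 3524 to 4018 at P10, 3708 to 3803 at P28 and 1279 in N2a. Nothing says how the animals were raised or whether litters were shared, so p-values measure the spread between these animals.

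Grin2b, which encodes the GluN2B subunit, had the densest insertions of the 6 genes in Syn1Cre animals. Per kb of locus, its mean was 1.73 IPM, 5.46 times the median of all loci, and 96.7% of loci had a lower density. Grin3a followed with 0.898 IPM per kb, above 86.3% of loci, then Grin2a with 0.709, above 79.5%, and Grin1 with 0.645, above 76.3%. Grin2c, at 0.221 IPM per kb, and Grin2d, at 0.126, lay below the median locus, above 39.2% and 27.0% of loci. At P10 the order changed: Grin3a was the densest member with 0.485 IPM per kb, above 60.1% of loci, and Grin2b had 0.403, above 55.2%, with overlapping animals. At P28 Grin2b was again the densest, with 1.05 IPM per kb, above 77.5% of loci.

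**Figure D1:**
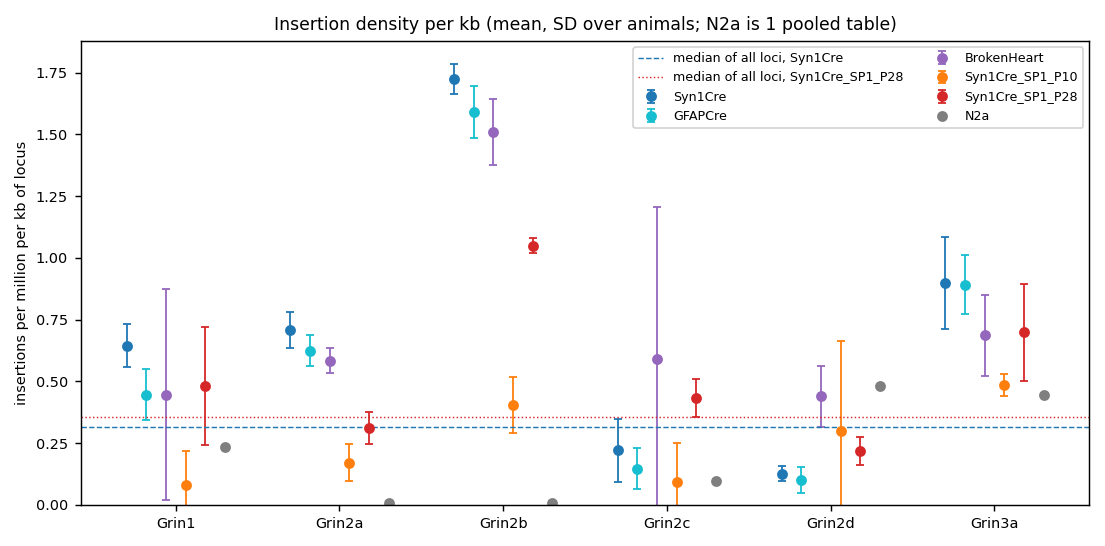
IPM per kb of locus (linear axis) for each member in 6 groups of tables; points and bars are means and SD over animals, N2a is 1 pooled table without error, and lines mark the median of all loci in Syn1Cre and P28. Grin2b stood highest in Syn1Cre (1.73) and fell to 0.403 at P10, where Grin3a (0.485) was above it.

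Grin2b was high in the groups without an SP1 label and low at P10. Its values ran from 782 to 860 with a median of 835 in the 6 Syn1Cre animals, and their mean was 829 ± 29.5 (SD, n = 6). In GFAPCre they ran from 668 to 808 with a median of 773, in Syn1CreNeg from 548 to 781 with a median of 658, and in GFAPCreNeg from 586 to 803 with a median of 707. The 2 C57bl6J animals had 704 and 654. The Syn1Cre animals overlapped with GFAPCre and GFAPCreNeg and lay above every Syn1CreNeg and C57bl6J animal. The Rbp4Cre_TRAP animals had 596, 854, 724 and 942, the BrokenHeart animals 772, 652 and 753, and the Frontflip_GFAPCre animals 764, 772 and 557. The 3 Frontflip_GFAPCreNeg animals together had 5 insertions at this locus. In the SP1 groups the P28 animals had 504.5, 486, 504.2 and 523, below every animal of the groups named so far outside Frontflip_GFAPCreNeg, and the P10 animals had 184, 145 and 252. In the order of group means Syn1Cre was highest, followed by Rbp4Cre_TRAP, GFAPCre, BrokenHeart, GFAPCreNeg, Frontflip_GFAPCre, C57bl6J and Syn1CreNeg. Neighbours in that run overlapped, and the gap to P28 was the only place above Frontflip_GFAPCreNeg where neighbours did not.

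Grin2a, which encodes GluN2A, had fewer insertions than Grin2b in every animal outside Frontflip_GFAPCreNeg. It ran from 269 to 352 IPM with a median of 329 in Syn1Cre, and its mean was 318 ± 32.8 (SD, n = 6). The medians were 285 in GFAPCre (228 to 313), 274 in Syn1CreNeg (215 to 319) and 251 in GFAPCreNeg (168 to 294). The P28 animals had 142, 101, 146 and 170 and the P10 animals 57.6, 55.7 and 115. All 7 SP1 animals except the highest at P28 lay below every animal of those 4 groups, and the P28 and P10 ranges overlapped.

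Grin3a, a GluN3 subunit gene, showed less contrast between groups. It ran from 138 to 239 IPM with a median of 186 in Syn1Cre, and its group means were 184 ± 37.8 there, 182 ± 24.5 in GFAPCre, 224 ± 32.9 in Syn1CreNeg and 204 ± 46.0 in GFAPCreNeg (SD, n = 6 each). The P28 animals had 198, 147, 115 and 111, within or below the Syn1Cre range, and the P10 animals had 103.6, 89.1 and 104.9. The lowest mean of a group of mice was that of Rbp4Cre_TRAP, whose animals had 87.7, 119, 49.9 and 81.9 from 15 insertions in all.

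Grin1, the gene of the obligatory subunit, gave few insertions. It had 25.8 to 37.2 IPM (median 30.6) in Syn1Cre and 14.99 to 27.6 (median 19.9) in GFAPCre. The P28 animals had 8.62, 36.7, 24.3 and 22.5, from 23 insertions, and at P10 there was 1 insertion, in animal 1, and 0 in the other 2. The counts of 0 allow up to 41.1 IPM in P10 animal 2 and 38.7 in P10 animal 3 (exact 95% intervals), which cover counting error only. Rbp4Cre_TRAP also had 1 insertion in 4 animals. Grin2c had a mean of 8.42 ± 4.85 IPM in Syn1Cre (SD, n = 6), 21.5 ± 15.4 in Syn1CreNeg and 5.57 ± 3.18 in GFAPCre. Its values at P28 were 17.2, 18.4, 18.2 and 12.1, from 16 insertions, and P10 had 1 insertion. Grin2d had a mean of 7.45 ± 1.86 in Syn1Cre (SD, n = 6) and 5.90 ± 3.08 in GFAPCre, with 12.9 ± 3.36 at P28 (SD, n = 4) and 0, 11.1 and 42.0 at P10. The counts of Grin2c and Grin2d were too low to order their groups.

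**Figure D2:**
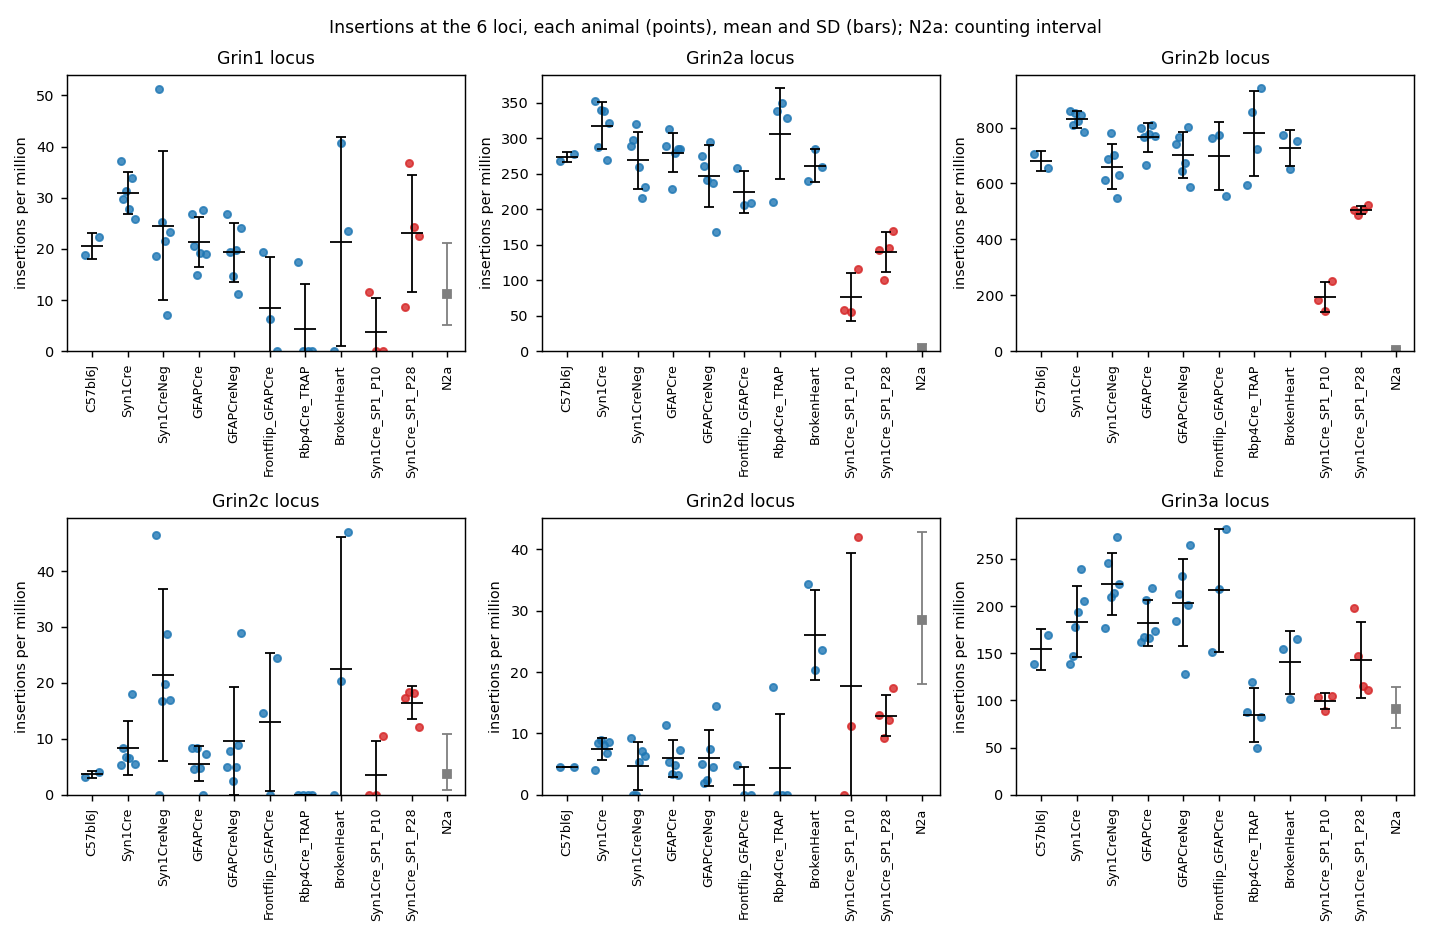
IPM at each member's locus in every animal, by group (Frontflip_GFAPCreNeg is left out for its depth), with mean and SD as bars and, for N2a, the counting interval; each panel has its own linear axis. The P10 points of Grin2b (145 to 252) sit below all P28 points (486 to 523), which sit below all Syn1Cre points (782 to 860).

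The comparison of P28 with P10 asks how SP1-labelled insertions differed with age. All mice were injected on day 0 to 1, so age and the time over which insertions could collect differ together. No group without the SP1 label has an age label. Age, that time and a change not tied to the SP1 label therefore cannot be told apart. Grin2b rose 2.81-fold after TMM scaling: before that scaling its locus held 504 ± 14.9 IPM at P28 (SD, n = 4) and 194 ± 54.1 at P10 (SD, n = 3), and the ranges did not overlap. The log2 difference was 1.49 ± 0.24 (SE; 95% interval 1.03 to 1.95), with an adjusted p of 0.00146 by edgeR's quasi-likelihood test. By p, Grin2b ranked 2 of 3458 loci tested. Grin2a also passed, with a log2 difference of 1.07 ± 0.33 and an adjusted p of 0.0341 by edgeR, from 140 ± 28.5 at P28 against 76.2 ± 33.9 at P10. Its animals overlapped, and under each of the 8 alternative settings that gave an adjusted p it lost the call, with values between 0.0530 and 0.141; DESeq2 gave it none. Leaving out P28 animal 1 or 4 or any P10 animal also ended it, with adjusted p up to 0.218. Grin3a was at 143 ± 40.3 and 99.2 ± 8.77, and although all P28 animals lay above all P10 animals it did not pass, with a log2 difference of 0.61 ± 0.30 and an adjusted p of 0.188 by edgeR. For Grin2b and Grin3a, the share of all loci tested whose animals did not overlap is not given here. Grin1, with 23 insertions at P28 and 1 at P10, Grin2c, with 16 and 1, and Grin2d, with 16 and 5, did not enter the test.

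So 2 of the 3 members tested were called, both higher at P28, where 11.1% of all loci tested were called and 7.4% were called higher. Their median log2 difference was 1.07, against 0.03 over all loci. Grin2b kept its call under all 9 alternative settings, with log2 differences of 1.31 to 1.55, and without any of the 7 animals in turn, with 1.30 to 1.70 and adjusted p up to 0.0318 by edgeR. The count of all loci called did not hold in this way, since it went from 385 to 7 without P10 animal 3, to 98 without P10 animal 2, to 142 without P10 animal 1 and to 166 without P28 animal 1. Scaling by total insertions in place of TMM, the default scaling, put 44.4% of the called loci higher at P28 instead of 66.5%, and Grin2b then had a log2 difference of 1.38 and an adjusted p of 0.00485 by edgeR. Limited to the animals whose sequencing pools mixed both ages, it had 1.51 and 0.00617.

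Astrocyte markers were higher at P28 beside these results, at 2 of 5 loci tested (1 with total-insertion scaling). The neuron markers had 2 higher and 1 lower of 14 (1 higher and 2 lower with total-insertion scaling). The summed astrocyte level was 1117 to 2412 IPM at P28 and 955 to 1248 at P10, and that of neuron markers 3708 to 3803 and 3524 to 4018. Their part in the result was not tested. P28 animal 4 had an astrocyte sum of 1117, within the P10 range, and 523 IPM at Grin2b, where the 4 P28 animals spanned only 486 to 523. This is 1 animal, and nothing about the part of the markers follows from it.

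Among the other ionotropic glutamate receptor genes, the AMPA receptor genes Gria2 and Gria3 were also higher at P28, and all 4 AMPA genes were tested. Gria2 had 365 ± 32.6 IPM at P28 and 198 ± 21.95 at P10, a log2 difference of 0.98 ± 0.22 (adjusted p = 0.00682, edgeR). Gria3 had 203 ± 16.5 and 103 ± 17.1, a log2 difference of 1.09 ± 0.26 (adjusted p = 0.0101, edgeR). The median of the AMPA list was 0.70 on the log2 scale. None of the 5 kainate receptor genes was called by edgeR, 0 had an unadjusted p under 0.05 and DESeq2 called 0; their median was 0.12, or -0.02 with total-insertion scaling. Of 30 genes for NMDA receptor partners at the synapse (scaffolds, kinases and regulators), 18 were tested and Dlgap1, a scaffold gene of the postsynaptic density, was called, at 878 ± 102 against 536 ± 37.3 (log2 difference 0.83 ± 0.21, adjusted p = 0.0122, edgeR). The partner median was 0.23 on the log2 scale.

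The comparisons of each SP1 group with Syn1Cre animals ask where SP1-labelled insertions departed from those of the group without that label; they share the Syn1Cre animals, and age was not matched by any label. All 4 members tested at P10, with Grin1 among them from 1 insertion, were called lower than in Syn1Cre. Over all 12858 loci 40.8% were called and 21.2% were called lower. Grin2b was at 194 ± 54.1 against 829 ± 29.5 IPM, a log2 difference of -2.64 ± 0.19 (adjusted p = 5.44e-11, edgeR). Grin2a was at 76.2 ± 33.9 against 318 ± 32.8, a difference of -2.59 ± 0.25 (adjusted p = 7.29e-09, edgeR). For Grin3a, at 99.2 ± 8.77 against 184 ± 37.8, the difference was -1.44 ± 0.29 (adjusted p = 3.14e-04, edgeR). No P10 animal reached the lowest Syn1Cre animal at any of these 3 loci, but the share of all loci tested for which this held is not given here. Grin1 was called too (-3.49 ± 0.81, adjusted p = 0.00116, edgeR), but from 1 insertion at P10. It passed the low-count filter only through the Syn1Cre animals, so that a call could only be lower and adds no support. Its ratio of pooled counts, Syn1Cre over P10, was 8.15 with an exact 95% interval of 1.44 to 324. With total-insertion scaling all 4 kept their calls, with Grin2b at -2.09, Grin2a at -2.05 and Grin3a at -0.88. That scaling moved the median of all loci from -0.28 to 0.27, and the share of higher loci among the called from 48.1% to 76.1%.

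At P28, 4 of 5 members tested were lower than in Syn1Cre, where 51.5% of 12050 loci were called and 25.3% were called lower. Grin2a, at 140 ± 28.5 against 318 ± 32.8, had a log2 difference of -1.60 ± 0.17 (adjusted p = 1.79e-08, edgeR), and Grin2b, at 504 ± 14.9 against 829 ± 29.5, had -1.20 ± 0.14 (adjusted p = 8.75e-08, edgeR). No P28 animal reached the Syn1Cre range at either locus, again without the share of all loci tested for which this held. Grin1 had -0.97 ± 0.29 (adjusted p = 0.00693, edgeR) and Grin3a -0.88 ± 0.21 (adjusted p = 0.00117, edgeR), with overlapping animals. The labels of Syn1Cre animals 1 to 3 and of all SP1 animals have an earlier layout, those of Syn1Cre animals 4 to 6 a later layout. At Grin3a the former Syn1Cre animals had 138, 147 and 178 IPM, the latter 194, 239 and 205, and the P28 animals 198, 147, 115 and 111. The part of the layout in the Grin3a differences at P10 and P28 was not tested. Scaled by total insertions, Grin2b at -0.71 and Grin2a at -1.12 kept their calls, while Grin1 at -0.51 (adjusted p = 0.179, edgeR) and Grin3a at -0.39 (adjusted p = 0.0959, edgeR) lost them, and Grin1 also lost it over distinct positions (adjusted p = 0.0683, edgeR). Under that scaling the median of all loci was 0.42 instead of -0.06 and 80.4% of called loci were higher instead of 50.8%. Grin2c did not pass, with 16.5 ± 2.95 against 8.42 ± 4.85 IPM, a difference of 0.52 ± 0.43 and an adjusted p of 0.315 by edgeR. The median of the members tested was -2.62 on the log2 scale at P10 and -0.97 at P28, against -0.28 and -0.06 over all loci. The P10 median includes Grin1, which entered only through its Syn1Cre counts.

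**Figure D3:**
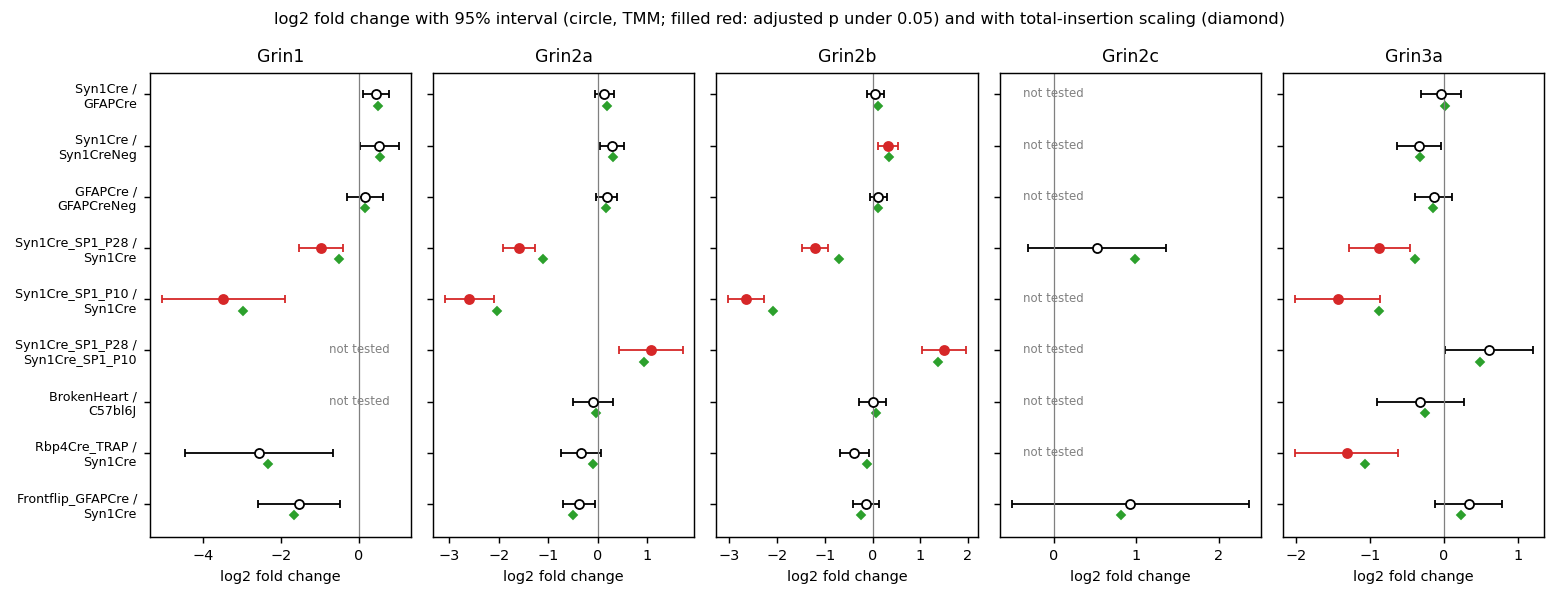
Log2 differences with their 95% intervals (edgeR) for each member tested in each comparison (circles, TMM; filled red where the adjusted p was under 0.05), with the value under total-insertion scaling as a diamond; Grin2d was not tested. Grin2b and Grin2a lie left of 0 in both SP1 groups against Syn1Cre and right of 0 for P28 over P10.

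The other receptor genes did not all move in 1 direction against Syn1Cre. All 4 AMPA genes were lower at P10 and at P28 under either scaling, with list medians of -1.80 and -1.18 on the log2 scale. Gria2 was at 198 ± 21.95 (P10) and 365 ± 32.6 (P28) against 647 ± 65.1 IPM, with log2 differences of -2.26 and -1.32. Among the 5 kainate genes, 4 were lower at P10 and 3 at P28 (2 each with total-insertion scaling). Grik1 was lower in both (-1.59 and -1.53), while Grik5 was higher in both, with 229 ± 84.1 at P10 and 187 ± 44.9 at P28 against 40.3 ± 6.80 IPM, log2 differences of 1.99 and 1.65. Of 28 partner genes tested, 4 were higher and 12 lower at P10, and 6 higher and 11 lower at P28. With total-insertion scaling these became 6 and 7 at P10, and 9 and 6 at P28, where the list median went from -0.35 to 0.12.

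Partner genes with large differences went in either direction. Shank1, a postsynaptic scaffold, had 173 ± 14.9 at P10 and 151 ± 21.7 at P28 against 29.0 ± 6.74 IPM in Syn1Cre, log2 differences of 2.02 and 1.85. The membrane-associated scaffold gene Dlg2, which encodes PSD-93, was lower, with 1007 ± 135 and 1181 ± 214 against 2641 ± 193, log2 differences of -1.95 and -1.64. Dlgap1 was lower too, by -2.09 at P10 and -1.31 at P28. Of 15 neuron markers, 3 were higher and 7 lower at P10, and 2 higher and 8 lower at P28 (with total-insertion scaling 5 and 5, and 3 and 4). Of 11 astrocyte markers, 2 were lower at P10 and 2 higher at P28; with total-insertion scaling 1 was higher at P10 and 7 at P28. Microglia markers (6 loci, summed) were at 138 to 241 IPM at P10 and 126 to 165 at P28 against 71.8 to 85.7 in Syn1Cre, without overlap, and 1 of the 2 tested was called higher at each age. Of 6 oligodendrocyte lineage markers 1 was lower at P10 and 2 at P28, and of 2 endothelium markers 1 at each (with total-insertion scaling 1 oligodendrocyte marker was higher and 1 lower at each age, and 0 endothelium markers were called). The part of these markers in the members' differences was not tested.

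The lower counts in the SP1 groups ran along most of the large loci. When each locus was cut into 10 equal parts by coordinate, P10 was below Syn1Cre in 10 of 10 parts of Grin2b, 10 of Grin2a and 8 of Grin3a, and P28 was below Syn1Cre in 10, 9 and 9. P28 was above P10 in 10 of 10 parts of Grin2b, 8 of Grin2a and 7 of Grin3a. In Syn1Cre the fullest part of Grin2b was the fifth, with 154 IPM, and the third and the tenth held 136 and 147. At P10 those parts held 29.7, 18.7 and 54.9, and at P28 82.1, 73.5 and 119, so that the tenth was the fullest in both SP1 groups. In Grin2a the fullest part was the sixth in Syn1Cre (60.3) and the tenth in P10 (18.6) and P28 (23.6). In Grin3a the tenth part held 39.5% of the insertions in Syn1Cre, 55.6% at P10 and 57.9% at P28. The P10 animals together had 53 insertions in Grin2b, 21 in Grin2a and 27 in Grin3a. Single parts at P10 therefore rest on few insertions, and their order is uncertain.

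**Figure D4:**
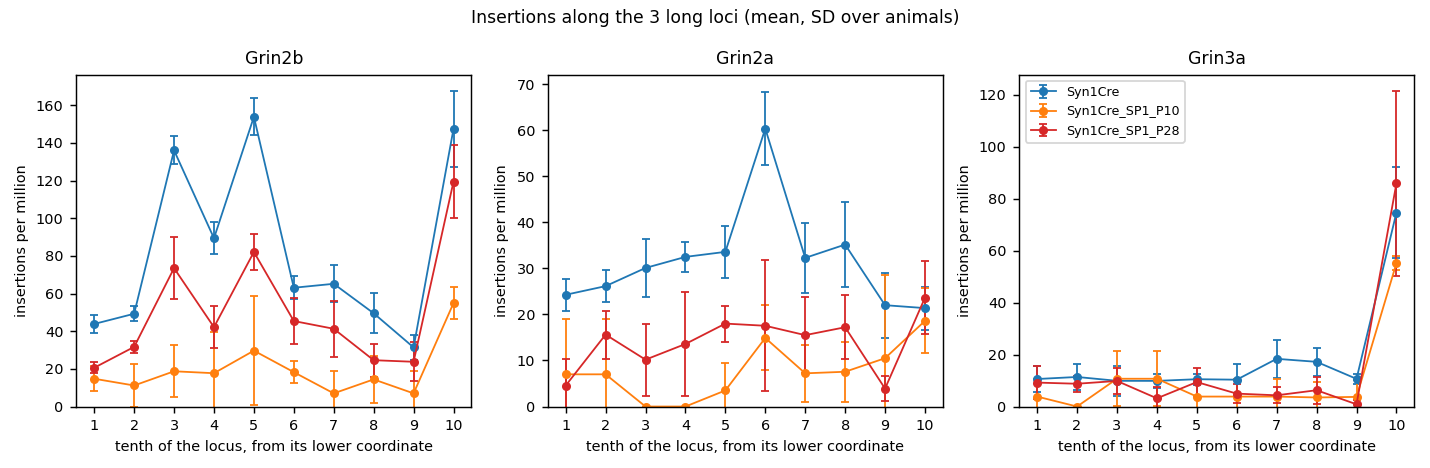
Mean IPM with SD over animals in 10 equal parts of the Grin2b, Grin2a and Grin3a loci, ordered by coordinate, for Syn1Cre, P10 and P28. In Grin2b, P10 is the lowest line in all 10 parts, and the tenth part stands out at P10 (54.9) and P28 (119).

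At Grin2b, a larger share of the P10 insertions lay at the higher-coordinate end of the gene than in Syn1Cre. Within 2 kb of that end, Grin2b held 3.75% of its insertions in Syn1Cre (3.02 to 5.10% by animal), 3.23% in GFAPCre, 15.1% at P10 (8 of 53; 12.5 to 16.7%) and 6.67% at P28 (37 of 555; 4.82 to 15.1%). Every P10 animal had a share above every Syn1Cre animal, and P28 overlapped both groups. Expressed as a level, that end of Grin2b held 32.6 IPM in Syn1Cre (24.9 to 43.8), 29.1 at P10 (22.3 to 42.0) and 41.7 at P28 (24.3 to 73.4), overlapping ranges, while the locus as a whole differed several fold. For Grin2a the share was 1.83% in Syn1Cre (0.840 to 3.32%) and 10.2% at P28 (17 of 166; 8.16 to 15.2%), with no overlap. At P10 it was 14.3% (3 of 21), but 2 of 5 insertions in animal 1, 1 of 5 in animal 2 and 0 of 11 in animal 3, so that P10 overlapped Syn1Cre. For Grin3a the share was 12.5% in Syn1Cre (8.81 to 20.8%), 33.3% at P10 (9 of 27; 20 to 50%), which overlapped Syn1Cre, and 29.7% at P28 (43 of 145; 26.6 to 37.5%), which did not. These shares were not tested, and the P10 values rest on few insertions. The opposite end of Grin2b held 0 insertions at P10 and at P28.

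A larger share near an annotated start was common among long genes in the SP1 groups. Over 1667 loci of at least 100 kb with an annotated start and at least 50 insertions in both groups, the median share within 2 kb of the start was 11.5% at P28 and 4.75% in Syn1Cre, and it was higher at P28 in 82.4% of loci and higher in all P28 animals than in all Syn1Cre animals in 35.3%. Over 453 such loci the medians were 8.47% at P10 and 2.85% in Syn1Cre, higher at P10 in 75.5% and without overlap of animals in 42.8%, the share to set beside Grin2b. At P28 the median over the 453 loci was 7.24%, against 8.47% at P10. Grin2a, Grin2b and Grin3a are not in that count, for which no start was used here.

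**Figure D5:**
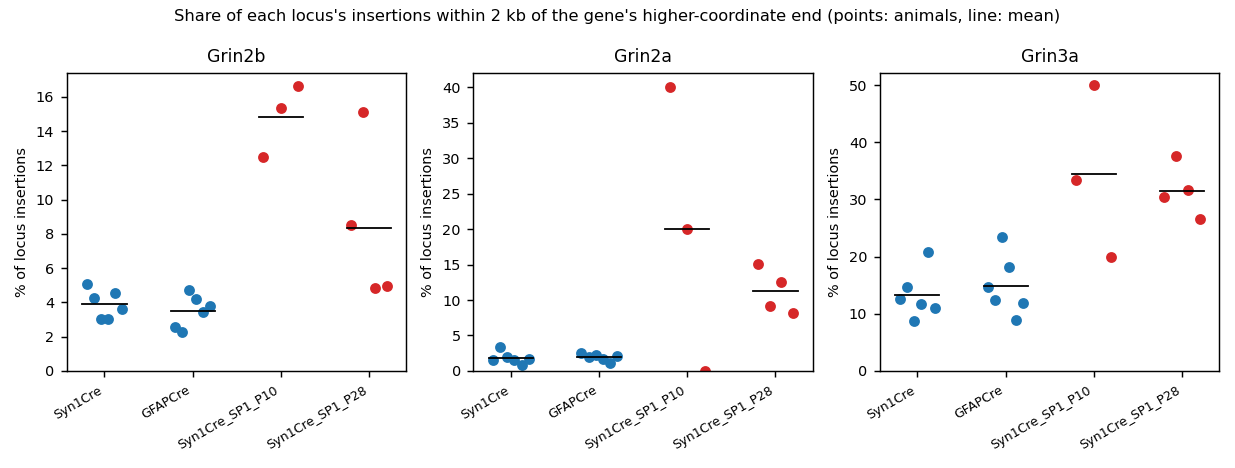
Percent of each locus's insertions within 2 kb of the higher-coordinate end of the gene, per animal, for Grin2b, Grin2a and Grin3a in Syn1Cre, GFAPCre, P10 and P28, with the group mean as a line. The P10 animals of Grin2b (12.5 to 16.7%) lie above all Syn1Cre animals (3.02 to 5.10%).

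Single TTAA sites were hit again and again in different mice. The most recurrent site in Grin2b, chr6:135906744-135906747, lay 267 kb below the higher-coordinate end and was hit in 35 of 43 animals read from RNA, with 232 insertions. It was hit in all 6 Syn1Cre and all 4 P28 animals and in 2 of 3 P10 animals. In Grin2a, chr16:9995824-9995827, only 0.259 kb below the higher-coordinate end, was hit in 29 animals, including all 4 at P28 and 2 of 3 at P10. Sites deep within the same gene, also hit in 29 animals each, were chr16:9796940-9796943, hit in 1 animal at P28 and 0 at P10, and chr16:9629319-9629322, hit in all 4 at P28 and 1 at P10. In Grin3a the leading site, chr4:49846110-49846113, lay just past the higher-coordinate end and was hit in 36 animals with 136 insertions. The leading Grin1 site, chr2:25320559-25320562, lay outside the gene, 1.37 kb upstream of its start, and was hit in 24 animals, 2 of them at P28 and 0 at P10.

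The share of insertions on the plus strand differed between members. Over all animals read from RNA, 49.5% of 15211 Grin2b insertions were on the plus strand (Wilson 95% interval 48.7 to 50.3%), and 48.8% of 3747 in Grin3a. Grin2a had 38.6% of 5768 (37.4 to 39.9%); in Syn1Cre alone it had 38.2% of 1800 (36.0 to 40.5%) and at P28 53.0% of 166 (45.4 to 60.5%). Grin2c had 60.5% of 167 (52.9 to 67.6%), Grin1 40.6% of 473 (36.3 to 45.1%) and Grin2d 76.8% of 138 (69.1 to 83.1%). These intervals cover counting error only.

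The comparison of Syn1Cre with GFAPCre asks whether neuronal and astrocytic Cre lines gave different insertions. None of the 4 members tested was called by edgeR, where 2.15% of 11550 loci were called; 1 member, Grin1, had an unadjusted p under 0.05, and DESeq2 called 0. Grin1 was at 31.0 ± 4.13 against 21.4 ± 4.92 IPM, a log2 difference of 0.43 ± 0.17 (adjusted p = 0.178, edgeR; 95% interval 0.11 to 0.76). Grin2b was at 829 ± 29.5 against 764 ± 50.3, with 0.06 ± 0.09 (-0.11 to 0.23), and Grin2a at 318 ± 32.8 against 280 ± 27.9, with 0.13 ± 0.10 (-0.06 to 0.32). Grin3a had -0.03 ± 0.14 (-0.30 to 0.23). Its log2 difference ran from -0.35 to 0.03 over 9 alternative settings, 1 of which kept Syn1Cre animals 1 to 3 alone. Those animals, with the earlier label layout, had 138, 147 and 178 IPM at Grin3a. Syn1Cre animals 4 to 6, with the later layout, had 194, 239 and 205. All GFAPCre labels have the earlier layout. Of the 15 neuron markers 6 were higher in Syn1Cre, and of 10 astrocyte markers 0 were called by edgeR (3 at an unadjusted p under 0.05, 0 by DESeq2). The count of loci called was 847 without Syn1Cre animal 5, the animal with the high astrocyte sum, and 128 to 148 without Syn1Cre animal 1, 2 or 3 or GFAPCre animal 1 or 4, and no member was called in any of these.

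Other glutamate receptor genes did differ between these lines. Grik1, a kainate receptor subunit gene, had 284 ± 48.7 IPM in Syn1Cre and 106 ± 18.2 in GFAPCre, a log2 difference of 1.38 ± 0.14 (adjusted p = 2.25e-07, edgeR). Grik3 had 135 ± 18.9 and 92.7 ± 8.56, a difference of 0.50 ± 0.10 (adjusted p = 0.00892, edgeR). For the AMPA genes edgeR called 0 of 4 (1 at an unadjusted p under 0.05, 0 by DESeq2) and for the partners 0 of 28 (4 at an unadjusted p under 0.05, 0 by DESeq2).

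Against their Cre-negative counterparts, Syn1Cre animals had more insertions at Grin2b, in a call that not every fit kept. It was the single call among 4 members tested, where 31.0% of 8610 loci were called and 13.5% were called higher. A single call therefore says little about the members as a set. Grin2b had 829 ± 29.5 IPM in Syn1Cre and 660 ± 81.1 in Syn1CreNeg, a log2 difference of 0.32 ± 0.11 (adjusted p = 0.0254, edgeR). The animals only just did not overlap, with 782.3 IPM in the lowest Syn1Cre animal and 781.1 in the highest Syn1CreNeg animal. The share of all loci tested without overlap is not given here. The call was lost without Syn1CreNeg animal 5 (adjusted p = 0.0906) or 6 (0.0605), with no low-count filter (0.0890) and over distinct positions (0.0602), all by edgeR. Grin2a had 318 ± 32.8 against 268 ± 40.2 and 0.28 ± 0.12 (adjusted p = 0.0847, edgeR). It passed over distinct positions (adjusted p = 0.0382), in gene bodies without flanks (0.0367) and without Syn1Cre animal 2 (0.0458) or 5 (0.0329), all by edgeR. Grin1 had 0.53 ± 0.26 (adjusted p = 0.126, edgeR). Grin3a had 184 ± 37.8 against 224 ± 32.9 and -0.34 ± 0.15 (adjusted p = 0.0955, edgeR), and passed without Syn1Cre animal 5 (-0.43, adjusted p = 0.0123, edgeR). In both groups the labels of animals 1 to 3 have an earlier layout and those of animals 4 to 6 a later layout. Grin2b was at 810 to 860 against 614 to 781 IPM in the earlier set and at 782 to 846 against 548 to 703 in the later, and with the layout as a block its log2 difference was 0.32 (adjusted p = 0.0126, edgeR). Beside this, 9 of 14 neuron markers were higher and 8 of 9 astrocyte markers lower in Syn1Cre, with astrocyte sums of 695 to 2123 against 2237 to 2903, and their part was not tested. Of 24 partner genes 8 were higher, among them Dlgap2 (0.65 ± 0.10) and Rasgrf2 (0.74 ± 0.14), and 2 lower, Camk2g (-0.87 ± 0.22) and Fyn (-0.46 ± 0.15), on the log2 scale.

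Between GFAPCre and GFAPCreNeg animals no member was called by edgeR, where 8.11% of 9201 loci were called; 0 of the 4 tested had an unadjusted p under 0.05 and DESeq2 called 0. Grin2b was at 764 ± 50.3 against 703 ± 82.0, a log2 difference of 0.12 ± 0.09, and Grin2a at 280 ± 27.9 against 246 ± 43.6, with 0.18 ± 0.11. Grin1 had 0.16 ± 0.24 and Grin3a -0.14 ± 0.13. Of the partner list 2 of 26 were called, both lower in GFAPCre: Fyn, a Src-family kinase gene, at -0.69 ± 0.11 and Camk2g at -0.75 ± 0.19 on the log2 scale. The difference between the Syn1 and GFAP lines in their response to Cre was not tested.

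The BrokenHeart comparison sets insertions read from DNA against insertions read from RNA. Between BrokenHeart and C57bl6J, 0 of 3 members tested were called by edgeR, where 39.9% of 1878 loci were called; 0 had an unadjusted p under 0.05 and DESeq2 called 0. Grin2b was at 726 ± 64.7 (SD, n = 3) against 679 ± 35.4 (SD, n = 2) IPM, a log2 difference of 0.01 ± 0.15 (95% interval -0.28 to 0.29), whose sign depended on the setting. Grin2a was at 261 ± 22.6 against 273 ± 7.24, with -0.10 ± 0.21 (-0.50 to 0.30), and Grin3a had -0.32 ± 0.30 (-0.91 to 0.27). The intervals leave room for differences of that size, so that equality was not shown. In contrast, the AMPA genes Gria2 and Gria4 were lower in BrokenHeart, with 185 ± 56.8 against 525 ± 23.7 (log2 difference -1.53 ± 0.22, adjusted p = 9.73e-07, edgeR) and 106 ± 14.4 against 228 ± 37.9 (-1.12 ± 0.30, adjusted p = 0.00315, edgeR). Neuron markers were lower in BrokenHeart at 8 of 12 loci and higher at 1. Library type and animals differ together between these groups and cannot be told apart.

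In Rbp4Cre_TRAP animals, Grin3a was the single member called lower than in Syn1Cre, where 2.1% of 10690 loci were called and 1.91% were called lower. It was at 84.7 ± 28.4 (SD, n = 4) against 184 ± 37.8 IPM, a log2 difference of -1.32 ± 0.36 (adjusted p = 0.0423, edgeR), from 15 insertions. Its animals did not overlap with Syn1Cre, and the share of all loci tested for which this held is not given here. The TRAP labels have the earlier layout, in which Syn1Cre animals had 138, 147 and 178 IPM at Grin3a, against 194, 239 and 205 in the later layout. The call was kept in 3 of 8 alternative settings and in 3 of 10 fits without an animal. It was lost without any of the 4 TRAP animals or without Syn1Cre animal 3, 4 or 6, with adjusted p up to 0.134, and with total-insertion scaling (-1.07, adjusted p = 0.117, edgeR). Grin2b at 779 ± 151 (-0.38 ± 0.16, adjusted p = 0.199, edgeR), Grin2a at 306 ± 64.5 (-0.34 ± 0.21, adjusted p = 0.448, edgeR) and Grin1 with 1 insertion did not pass; with no low-count filter Grin2b did (-0.59, adjusted p = 0.0208, edgeR). The pooled Grin1 ratio, Syn1Cre over TRAP, was 5.15 with an exact 95% interval of 0.912 to 205. The scaling moved the share of higher loci among the called from 9.33% to 42.6%. Beside this, astrocyte markers summed to 298 to 696 IPM in TRAP and 695 to 2123 in Syn1Cre, with 1 of 9 tested lower, and their part was not tested. The TRAP libraries came from whole forebrain and the Syn1Cre libraries from cortex, and tissue, library type and Cre line cannot be told apart here. Frontflip_GFAPCre against Syn1Cre gave 0 of 5 members called by edgeR, where 3.42% of 12107 loci were called; 2 had an unadjusted p under 0.05 and DESeq2 called 0. Grin2b was at 698 ± 122 (SD, n = 3; -0.13 ± 0.14), Grin2a at 224 ± 29.5 (-0.38 ± 0.17), Grin3a at 217 ± 65.3 (0.34 ± 0.23), Grin2c at 13.02 ± 12.3 (0.93 ± 0.73) and Grin1 at 8.56 ± 9.94 (-1.55 ± 0.54) IPM, with log2 differences in brackets.

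The N2a line had nearly no insertions at the GluN2A and GluN2B genes. Its pooled table held 3 insertions in Grin2b and 3 in Grin2a, 3.72 IPM each. C57bl6J cortex was 182-fold higher at Grin2b (exact 95% interval 62.0 to 881) and 73.6-fold higher at Grin2a (25.1 to 358), intervals that cover counting error only. Grin3a, with 73 insertions (90.5 IPM), was 1.73-fold higher in C57bl6J (1.36 to 2.24). Grin1, with 9 insertions, had a ratio of 1.87 (0.938 to 4.25). Grin2d went the other way, with 23 insertions (28.5 IPM) in N2a, 6.26-fold above C57bl6J (3.20 to 12.5), of which 17 lay in the gene body. Grin2c had 3 insertions and a ratio of 1.01, C57bl6J over N2a. Per kb, Grin2d (0.481 IPM per kb) and Grin3a (0.443) were the densest members in N2a, above 60.8% and 58.4% of loci, and Grin2b had 0.00774. There was 1 table, so no replicate check exists for these values.

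The members' patterns over the 11 group means resembled those of different genes. Pearson's r was taken on log2 group means over 8124 loci with enough insertions; the groups share no animals but differ in depth, and r is given as a description. Grin2a and Grin2b followed each other (r = 0.96), and Grin2b was closest to App (0.97), Man1a (0.96) and the synaptic vesicle gene Syt1 (0.96). Grin2a was closest to Syt1 (0.97), Dab1 (0.97) and Fhod3 (0.96). Grin3a followed Dph6 (0.96), Rasal2 (0.95) and 9330159F19Rik (0.95), and its r with Grin2b was 0.15. Its highest group mean, 295 IPM in Frontflip_GFAPCreNeg, came from 4 insertions. That shallow group weighed as much as any other in every r given here. Grin1 was closest to Nae1 (0.99), Ints7 (0.98) and Car7 (0.97), Grin2c to Atp6v0e (0.96) and Gjb6 (0.96), and Grin2d to Gipc1 (0.95), Kif13a (0.94) and Gldc (0.94), from low counts in all 3.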

How the data were processed

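Each deposited table lists, per the labels, the insertions of an animal with a raw read count in each line; an insertion was 1 line, and per the submitters' processing notes Novoalign, Bowtie2 and mm10 were used (roles and versions not given in the sources used here). Read counts as deposited by the authors were used only in the alternative that asked for 2 or more reads. Starts were raised by 1 in the SRT tables, after which 100% of lines within the promoter sequences lay on TTAA; BrokenHeart starts were left as deposited (96.9 to 98.2% on TTAA).

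Lines were counted per gene body with 10 kb flanks (RefSeq, GRCm38.p6), and 2 kb on each side of annotated starts. Each comparison used its 2 groups alone: edgeR 4.0.16 quasi-likelihood test on these counts, TMM, filterByExpr, Benjamini-Hochberg adjustment over all loci tested, threshold 0.05. Total-insertion scaling, DESeq2 1.42.0, no filter, distinct positions, other windows, blocks and leaving out each animal were alternatives; pooled groups with 1 table were not tested. Where animals of 2 groups were said not to overlap in their level at a locus, the share of all loci tested without overlap is not given. The members, the gene lists and the rule for named genes were chosen with earlier results of these data known. That rule names all members, up to 3 highest and 3 lowest partner genes called, up to 2 AMPA and 2 kainate genes, and the 3 most like loci (log2 of insertions per 1000000 plus 1, mean of at least 20 insertions). Marker lists covered neurons, astrocytes, the oligodendrocyte lineage, microglia and endothelium; for P28 against P10 the last 3 had at most 1 locus tested each, with 0 called by edgeR (values in the report for the other comparisons that touch a call).

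On simulated data with 200 loci changed 3-fold, 95% were recovered for P28 against P10, 51.5% for P10 against Syn1Cre, 88.5% for P28 against Syn1Cre and 32.5% for Rbp4Cre_TRAP against Syn1Cre. Of the loci called there, 5%, 0.962%, 3.8% and 9.72% were false, in the same order. For Syn1Cre against Syn1CreNeg 96% were recovered and 7.25% of the calls were false. These counts were drawn from the means and dispersions that edgeR had fitted. Identical lines between animals of a group reached at most 17.7% of the smaller table's member lines, and all animals were kept. Sequences came from RefSeq; promoter sequences of Grin2a, Grin2b and Grin3a were not used here. Some genes that the naming rule selects are not reported here.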

Additional observations from a re-analysis of the deposited data

Results flagged for a closer look

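Each member's values in each group of 4 or 6 animals were checked for an animal far from the rest. Dixon's test at the 95% level was used, which chance passes in about 1 of 20 sets of values. Of 35 such sets, 6 had such an animal. The same animals recur in the sets of different members, so the sets are not independent. At Grin1 and at Grin2d, Rbp4Cre_TRAP animal 1 had 17.5 insertions per 1000000 (IPM) and the other 3 animals 0; each value is a single insertion. At Grin2a the same animal was lowest of its group, with 210 IPM against 328 to 349 in the other 3, from 12 insertions. At Grin2b, GFAPCre animal 3 was lowest with 668 IPM. At Grin2c, Syn1Cre animal 5, the animal with the high astrocyte marker sum, had 18.1 IPM, and GFAPCreNeg animal 6 had 28.8.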

How the results depend on the processing

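Of 618 recalculated member differences, 563 kept their direction and side of the threshold, 32 lost the call, 7 gained it and 16 changed sign; no called difference changed sign. The causes of these changes were not tested. Changes of sign concerned Grin3a in Syn1Cre over GFAPCre (0.015 with total-insertion scaling, 0.025 without flanks, and -0.11 to 0.042 without an animal, positive without Syn1Cre animal 1 or 2 or GFAPCre animal 5), Grin3a in GFAPCre over GFAPCreNeg (0.024 in pool-sharing animals), and Grin2b in BrokenHeart over C57bl6J (-0.00032 with DESeq2, -0.51 without filter, -0.012 with 2 or more reads, -0.0077 without neighbours, -0.013 with the replicate block, and -0.35 to -0.029 without an animal), all on the log2 scale.

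Counts of loci called moved over 1.5 times as follows. Syn1Cre over GFAPCre gave 1634 with Syn1Cre animals 1 to 3 alone, and GFAPCre over GFAPCreNeg 37 in pool-sharing animals. Gene bodies without flanks gave 2837 (P28 over Syn1Cre), 2335 (P10 over Syn1Cre), 196 (P28 over P10), 129 (TRAP) and 206 (Frontflip); without neighbours the SP1 groups gave 4010 and 3315. P28 over P10 gave 167 by DESeq2, 225 over distinct positions and 166 in pool-sharing animals. BrokenHeart gave 1251 without filter and 498 with 2 or more reads, TRAP 129 with total-insertion scaling, 778 without filter and 437 over distinct positions, and Frontflip 123 with 2 or more reads. Of start windows, 1971 (P28), 1920 (P10) and 44 (P28 over P10) were called; distinct positions gave 397, 506 and 1, and the last was 94 with 5 kb, 6 by DESeq2 and 69 with total-insertion scaling. Total-insertion scaling made 98.5%, 97.2% and 4.35% of called start windows higher, against 52.3%, 47.2% and 88.6%, and 58.8% instead of 73.9% of Frontflip loci.

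Without an animal in turn, loci called ranged from 128 to 847 (Syn1Cre over GFAPCre), 2056 to 3260 (over Syn1CreNeg), 386 to 1119 (GFAPCre over GFAPCreNeg, lowest without GFAPCre animal 2), 5626 to 6583 and 4136 to 5507 (P28 and P10 over Syn1Cre), 7 to 538 (P28 over P10), 355 to 893 (BrokenHeart, lowest without C57bl6J animal 2), 89 to 472 (TRAP, extremes without Syn1Cre animals 6 and 5) and 54 to 847 (Frontflip, without Frontflip animal 3 and Syn1Cre animal 5), and start windows from 1700 to 2107, 1625 to 1927 and 16 to 44.

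Replicate numbers were not taken to pair the animals, since in no comparison was every pair's correlation over 0.1: for P28 and P10 the correlations of same-numbered animals were 0.00879 to 0.0570, for Syn1Cre and Syn1CreNeg -0.018 to 0.23, over 0.1 in 4 of 6 pairs, and over all comparisons -0.418 to 0.277. With the replicate number as a block, loci called were 349 (BrokenHeart), 118 (TRAP), 1093 (Frontflip) and 539 (P28 over P10), start windows of P28 over P10 were 25, and Grin3a passed in Frontflip over Syn1Cre (0.66, adjusted p = 0.0166, edgeR). Depth limits the short members most: Grin2d entered no test, and Grin2c 2 of 9.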
